A study of Rattus norvegicus with 4 samples.

Results

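The insulin and insulin-like growth factor (IGF) axis was followed through 10 genes in 4 kidney sections of the rat. The genes were picked by symbol among the 32402 gene rows that all 4 count matrices share. Igf1 is the ligand of the axis. Ghr, Igf1r and Insr are receptors, Irs1 and Irs2 are intracellular adaptors, and Igfbp3, Igfbp4, Igfbp5 and Igfbp7 are secreted binding proteins. Each symbol matched exactly 1 row, and all 10 were detected in every section.

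Growth hormone binds its receptor Ghr and, through JAK2 and STAT5, switches on Igf1 in liver and other tissues. IGF1 acts on the receptor encoded by Igf1r and insulin on the receptor encoded by Insr, and both receptors signal through the IRS adaptors to PI3K and AKT. Secreted binding proteins hold IGFs in blood and tissue and set how much ligand reaches its receptor, and proteases such as the one encoded by Pappa release it. Fasting lowers circulating IGF1 and insulin and raises IGFBP1, and in the kidney IGF1 is known to raise blood flow and filtration.

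All animals were Sprague-Dawley rats, and each group was a single section. PAN_LS-FMD is an animal given puromycin aminonucleoside, a toxin that injures podocytes, and then a fasting-mimicking diet low in salts (LS-FMD) for 6 cycles. PAN is an injected animal fed ad libitum. The design text places the injected animals 5 months after injection and 6 weeks after treatment. The healthy_LS-FMD section comes from an uninjected rat after 1 diet cycle and 72 hours of refeeding. The healthy section comes from an untreated rat. Age, sex and dose were not stated in the labels. Frozen 10 µm sections were laid on Visium slides, on which barcoded spots capture the polyadenylated RNA of a small patch of tissue and count it by unique molecular identifiers (UMIs). A spot covers several cells, so fewer cells of a type and less RNA per cell cannot be told apart. With 1 section per group there are no replicates: no p-value is given, and every interval below covers counting error only.

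Levels are given in CPM, a gene's UMIs over all spots with at least 500 UMIs, scaled to the same total in each section. The CPM levels of different genes are not set against each other. The sections held 2187 such spots in PAN_LS-FMD, 2724 in PAN, 2593 in healthy_LS-FMD and 2866 in healthy, with 34965670, 24924170, 25330872 and 58568499 UMIs. Havcr1, a marker of injured proximal tubule, stood at 219 CPM in PAN and between 5.49 and 8.43 CPM in the other sections. Spots were clustered within each section into 12 to 15 regions, and regions were placed in cortex, outer stripe or medulla by marker scores, each list's score divided by its spread over the section's regions; regions led by matrix, lymphocyte or smooth muscle markers were given no zone, which took 27.1% of PAN spots. Medullary regions held 36.1% of the spots of healthy_LS-FMD, against 19.6% in healthy, 21.8% in PAN and 21.0% in PAN_LS-FMD. Space Ranger 2.0.1 made the healthy matrix and 1.2.1 the other 3, so program version and group cannot be told apart in any comparison with healthy.

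A gene is called higher or lower in a comparison where its level differed by at least 1.5-fold and the exact 95% interval of the ratio excluded 1, among genes with at least 20 UMIs over both sections. The same rule over all genes gives the background. It was large in several comparisons, since the median gene was shifted: its log2 ratio over all spots was 0.51 in PAN against healthy, -0.37 in PAN_LS-FMD against PAN, 0.33 in healthy_LS-FMD against healthy and 0.11 in PAN_LS-FMD against healthy. Scaling by median-of-ratios size factors sets the median gene near no change. It is therefore given beside many of the ratios and counts whose call or direction it changes. This covers all spots, the zones and the pathway lists, but not every such value.

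The regions in front of the annotated starts of the 4 binding-protein genes are shown because these genes carried most of the axis's UMIs and the clearest regional patterns below, Igfbp3 together with Igfbp4 and Igfbp5 together with Igfbp7. They come from a set of RefSeq promoter windows (build GRCr8) that covered 9 of the 10 genes, Irs2 being the other. Each is written 5′ to 3′ on the gene's strand and ends just before the gene's first annotated base. Capitals mark the TATA-box letters TATAAA or their variant TATATA, and the GC-box core GGGCGG, each searched on both strands.
Igfbp3: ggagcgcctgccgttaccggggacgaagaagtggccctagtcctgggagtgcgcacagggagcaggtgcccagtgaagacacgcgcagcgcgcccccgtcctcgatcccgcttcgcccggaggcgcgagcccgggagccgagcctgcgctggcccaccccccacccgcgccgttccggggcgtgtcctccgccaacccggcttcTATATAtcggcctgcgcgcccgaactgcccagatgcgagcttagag
Igfbp4: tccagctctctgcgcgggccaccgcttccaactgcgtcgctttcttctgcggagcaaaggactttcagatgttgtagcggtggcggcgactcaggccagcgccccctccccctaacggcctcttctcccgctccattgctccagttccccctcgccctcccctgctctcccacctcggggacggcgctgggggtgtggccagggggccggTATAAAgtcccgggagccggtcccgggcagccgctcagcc
Igfbp5: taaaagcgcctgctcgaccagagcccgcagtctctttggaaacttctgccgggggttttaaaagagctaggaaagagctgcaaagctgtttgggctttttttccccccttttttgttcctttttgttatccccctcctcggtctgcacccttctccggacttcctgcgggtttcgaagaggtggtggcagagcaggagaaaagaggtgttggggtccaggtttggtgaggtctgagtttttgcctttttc
Igfbp7: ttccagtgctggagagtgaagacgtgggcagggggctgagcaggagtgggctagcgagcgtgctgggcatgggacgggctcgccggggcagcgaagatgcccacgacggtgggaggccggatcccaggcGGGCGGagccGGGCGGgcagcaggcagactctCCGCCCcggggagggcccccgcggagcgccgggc

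The Igfbp3 sequence lies at chr14:86277945-86278194 (minus strand) and holds TATATA once. The Igfbp4 sequence lies at chr10:84491221-84491470 (plus strand) and holds TATAAA once. Over all 33469 promoter windows of 250 bases, 5.45% held TATATA and 12.9% held TATAAA. The Igfbp5 sequence, chr9:81914188-81914437 (minus strand), holds none of the 3 motifs and has a GC content of 51.6%, against 71.6% for Igfbp3 and 68.8% for Igfbp4. The Igfbp7 sequence, chr14:31091486-31091680 (plus strand), is limited to the 195 bases before the gene and holds GGGCGG 3 times; 23.3% of windows cut to that length held it at least once. The FOXO-type motif TGTTTAC, the CRE motif TGACGTCA and the E-box CACGTG were also searched on both strands and were in none of the 4 sequences; among all windows of 250 bases 3.21%, 1.59% and 5.59% held them. A match describes letters and not a bound factor.

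Igf1, the ligand, was scarce in all sections. It stood at 3.60 CPM in PAN_LS-FMD, 8.14 CPM in PAN, 10.0 CPM in healthy_LS-FMD and 5.24 CPM in healthy. The section of the uninjected rat on the diet was the highest and that of the injected rat on the diet the lowest. Ghr, the growth hormone receptor, stood at 16.2, 6.42, 13.0 and 16.0 CPM in PAN_LS-FMD, PAN, healthy_LS-FMD and healthy. PAN was the lowest, and healthy_LS-FMD stood at 0.813 times healthy (0.715 to 0.923), or 0.641 times with size factors. Insr, the insulin receptor, stood at 16.4 CPM in PAN_LS-FMD, 15.4 in PAN, 24.1 in healthy_LS-FMD and 14.7 in healthy, where the first 2 and healthy lay close together. Igf1r, the IGF1 receptor, was near the limit of detection with 29, 26, 41 and 44 UMIs in the same order, or 0.829, 1.04, 1.62 and 0.751 CPM.

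Irs1 and Irs2 pass the receptor signal to PI3K. Irs1 was the scarcest of the 10 genes, with 17, 21, 24 and 41 UMIs in PAN_LS-FMD, PAN, healthy_LS-FMD and healthy. These are 0.486, 0.843, 0.947 and 0.700 CPM in the same order, and no ratio between sections was called. Irs2 stood at 23.1 CPM in PAN_LS-FMD, 31.9 in PAN, 36.2 in healthy_LS-FMD and 22.6 in healthy, 2 sections being high and 2 low.

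The binding proteins did not share 1 order of the sections, though Igfbp4 and Igfbp7 ordered them alike. Igfbp3, the main IGF carrier in serum, stood at 229 CPM in PAN_LS-FMD, 122 in PAN, 112 in healthy_LS-FMD and 167 in healthy. Igfbp4, which is cleaved by PAPP-A, stood at 23.2, 117, 30.8 and 36.5 CPM, with PAN far above the other sections. Igfbp5, a binding protein that also attaches to extracellular matrix, stood at 325 CPM in PAN_LS-FMD, 551 in PAN, 1069 in healthy_LS-FMD and 439 in healthy. Igfbp7, which binds IGFs weakly and is made by vessels and epithelia, stood at 2324, 3534, 2558 and 2680 CPM in that order and varied least, by 1.52-fold between its highest and lowest section; Igfbp4 varied most, by 5.04-fold.

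**Figure D1:**
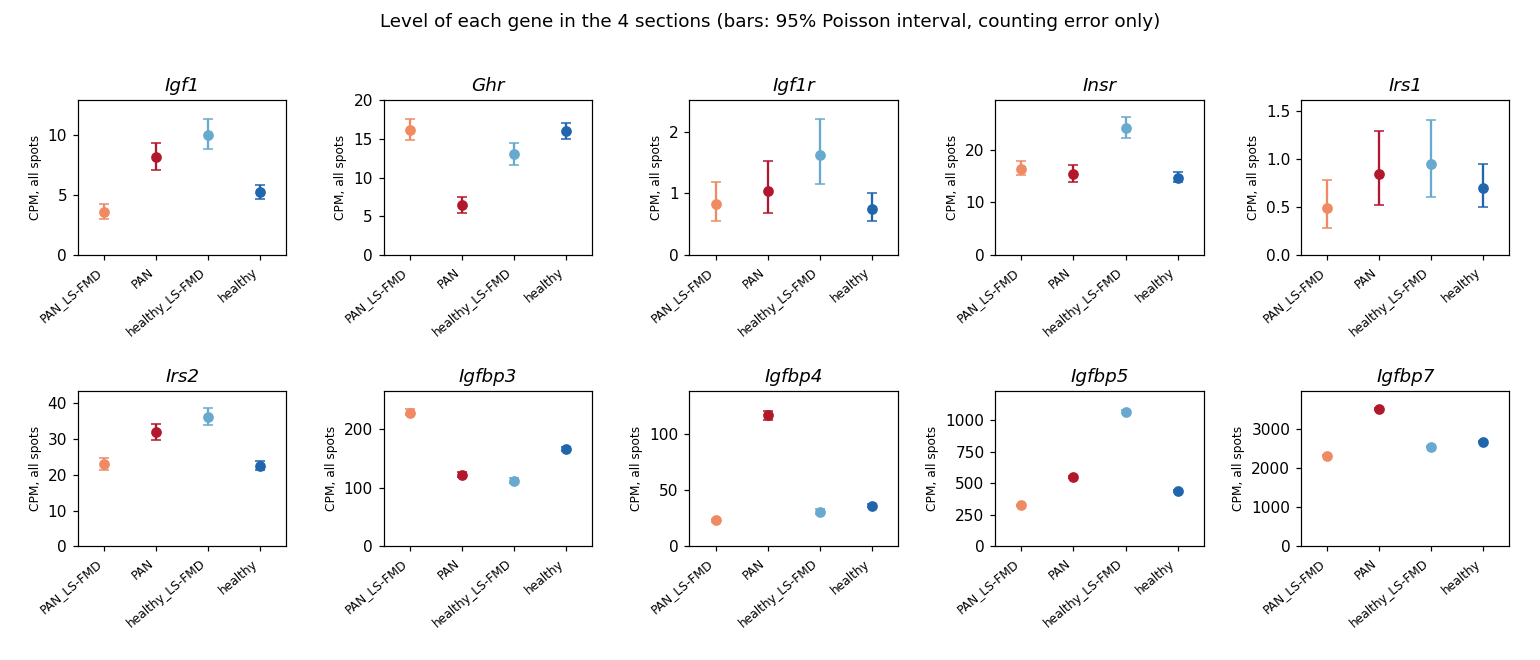
Level of each of the 10 genes (CPM over all spots, linear axis from 0) in the 4 sections; a point is 1 section and its bar the 95% Poisson interval, which covers counting error only. Igfbp4 stood at 117 CPM in PAN and at 23.2 to 36.5 CPM elsewhere, Ghr was lowest in PAN at 6.42 CPM, and Igfbp5 was highest in healthy_LS-FMD at 1069 CPM.

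The injected kidney without diet differed from the healthy one in 3 genes. Igfbp4 was 3.20-fold higher in PAN (95% interval 3.03 to 3.39) and Igf1 1.55-fold higher (1.29 to 1.86), while Ghr stood at 0.401 times its healthy level (0.337 to 0.474). In this comparison 44.3% of all tested genes were called higher and 9.85% lower, 54.1% together, so 2 higher and 1 lower of 10 are not above the background. With size factors Igfbp4 was 2.24-fold higher and Ghr stood at 0.281 times healthy, the Igf1 ratio was 1.09 and not called, and Igfbp3 was called lower at 0.514; Igf1r, Insr, Irs1, Irs2, Igfbp5 and Igfbp7, which had ratios between 1.05 and 1.41, then had ratios between 0.735 and 0.990. The healthy section was also the one made with the other program version.

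Igfbp4 in PAN was high in every zone and no longer concentrated in the cortex. In cortex it stood at 105 CPM in PAN and 69.3 in healthy, a ratio of 1.52 (1.39 to 1.65). In the outer stripe it stood at 85.9 CPM in PAN, against 16.9 in healthy, and in the medulla at 113 CPM in PAN, against 22.1 in healthy, ratios of 5.08 (4.46 to 5.80) and 5.10 (4.37 to 5.96). Across regions of PAN it ranged between 67.1 and 210 CPM, the highest being the region led by Car3, Lum and Ankrd1, whose leading marker list was fibroblast and matrix; across regions of healthy it ranged between 12.6 and 104 CPM. The cortical ratio fell to 1.15 with size factors and was not called there.

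The spots richest in cell type markers showed the same change of place. In the 5% of spots with the most S1 and S2 proximal tubule markers, Igfbp4 was 3.56 times the level of the other spots in PAN_LS-FMD, 3.72 times in healthy_LS-FMD and 3.62 times in healthy, but 0.876 times in PAN (0.737 to 1.03). In PAN its ratio was 2.25 (1.96 to 2.56) in the spots richest in fibroblast and matrix markers, against 1.04 (0.824 to 1.29) in healthy. The 9 fibroblast and matrix markers together made 2843 CPM in PAN and 503 CPM in healthy, the 8 macrophage markers 1261 and 208 CPM, and the 8 tubular injury markers 20666 and 802 CPM. Their part in the result was not tested; without the regions that had no zone Igfbp4 was 2.71-fold higher in PAN, and the cortex kept there had 2287 CPM of fibroblast and matrix markers in PAN and 452 CPM in healthy.

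Ghr was low in PAN in each zone. It stood at 6.00 CPM in PAN against 11.9 in healthy in cortex, at 9.80 against 19.6 in the outer stripe, and at 4.56 against 15.1 in the medulla. The ratio was 0.505 (0.366 to 0.686) in cortex and 0.303 (0.185 to 0.474) in the medulla, and its interval in the outer stripe was 0.377 to 0.653. Ghr was highest in regions led by markers of S3, the straight end of the proximal tubule, in all 4 sections: 22.5 CPM in PAN_LS-FMD, 15.5 in PAN, 22.1 in healthy_LS-FMD and 22.3 in healthy. The 6 S3 markers together made 5658 CPM in PAN, against 12602 CPM in healthy. In cortex, outer stripe and medulla they made 6429, 8485 and 3177 CPM in PAN and 9307, 15981 and 11497 CPM in healthy. The part of these differences in the Ghr result was not tested, over all spots or by zone.

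Igf1 differed in opposite directions in cortex and medulla. In cortex it stood at 9.41 CPM in PAN and 3.29 in healthy, a ratio of 2.86 (2.04 to 4.02) that was 2.16 with size factors. In the medulla it stood at 7.05 CPM in PAN and 10.9 in healthy, a ratio of 0.646 (0.428 to 0.953). In PAN the region led by Car3, Lum and Ankrd1 had 16.7 CPM from 46 UMIs, while in healthy the region led by Spp1, Slc4a11 and Plet1, a medullary one, had 29.6 CPM from 60 UMIs. That region held 60 of the 118 Igf1 UMIs of healthy medulla, and no region of PAN was led by these genes. The part of the stretch of medulla cut in the medullary ratio was not tested. In PAN the spots richest in macrophage markers had 2.62 times (1.49 to 4.30) the Igf1 of other spots, and those richest in fibroblast and matrix markers 2.55 times; the counts behind these were 17 and 19 UMIs. Podocyte-rich spots of PAN had 2.29 times (1.30 to 3.76), also on 17 UMIs.

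In cortex 5 of 9 measured genes were called in PAN against healthy, where 35.7% of all genes were higher and 9.32% lower, 45.0% together. Igf1, Irs2 and Igfbp4 were higher, Irs2 by 1.53-fold (1.30 to 1.80). Ghr and Igfbp3 were lower, Igfbp3 standing at 213 CPM in PAN and 354 CPM in healthy, a ratio of 0.602 (0.571 to 0.634). With size factors only Igf1 was still called higher, and Igfbp5 at 0.544 joined Ghr and Igfbp3 among the lower ones.

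The injected kidney after the diet differed from the injected kidney without it in 6 genes. Ghr was 2.53-fold higher in PAN_LS-FMD (2.12 to 3.03) and Igfbp3 1.87-fold higher (1.80 to 1.95). Igfbp4 stood at 0.198 times its PAN level (0.183 to 0.214), Igf1 at 0.442 times (0.351 to 0.555), Igfbp5 at 0.590 times (0.576 to 0.605) and Igfbp7 at 0.658 times (0.652 to 0.664). Of all genes 9.67% were called higher and 35.5% lower here, 45.2% together, against 2 and 4 of the 10. Under size factors Igfbp5 at 0.770 and Igfbp7 at 0.858 were not called, the 4 others were, and the Igf1r ratio turned to 1.04 from 0.795. This comparison shares the PAN section with the previous one, so a gene far off in PAN stands out in both. Together the S3 markers made 16317 CPM in PAN_LS-FMD and 5658 CPM in PAN, the fibroblast and matrix markers 419 and 2843 CPM, and the macrophage markers 341 and 1261 CPM; their part in these ratios was not tested.

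Igfbp4 and Ghr differed between these injected kidneys in every zone. Igfbp4 stood at 38.5 CPM in PAN_LS-FMD cortex against 105 CPM in PAN cortex, at 10.2 against 85.9 CPM in the outer stripe and at 17.2 against 113 CPM in the medulla. The ratios were 0.366, 0.118 and 0.153, with all upper bounds at or below 0.408. Ghr was 2.11-fold, 2.06-fold and 3.47-fold higher in cortex, outer stripe and medulla of PAN_LS-FMD. The S3 markers made 12599, 20233 and 16268 CPM in these zones of PAN_LS-FMD and 6429, 8485 and 3177 CPM in PAN. Their part in the Ghr ratios was not tested. Igfbp3, which is strongest in the cortex, stood there at 423 CPM in PAN_LS-FMD and 213 CPM in PAN, a ratio of 1.98 (1.88 to 2.09).

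Igfbp5 differed by zone in this pair. In cortex it stood at 507 CPM in PAN_LS-FMD and 486 CPM in PAN, a ratio of 1.04 (1.00 to 1.08). In the medulla it stood at 236 CPM in PAN_LS-FMD and 739 CPM in PAN, a ratio of 0.320 (0.301 to 0.339), and in the outer stripe the ratio was 0.411 (0.389 to 0.434). For Igfbp7 the ratio was 0.821 in cortex, 0.578 in the outer stripe and 0.628 in the medulla, and with size factors the last 2 were 0.787 and 0.849 and not called. Over the cortex 4 of 8 measured genes were called, Ghr and Igfbp3 higher and Igf1 and Igfbp4 lower, where 9.09% of all genes were higher and 22.5% lower, 31.6% together; all 4 were called with size factors too.

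Against the healthy kidney, the injected kidney after the diet differed in 1 gene over all spots and in cortex, and in more genes in the other zones. Igfbp4 stood at 0.635 times the healthy level (0.585 to 0.689) over all spots and at 0.556 times (0.503 to 0.614) in cortex. Over all spots 6.80% of genes were called higher and 4.53% lower, 11.3% together, against 0 and 1 of the 10. In cortex 10.5% of genes were higher and 2.93% lower, 13.4% together, against 0 and 1 of 9. The Ghr ratio was 1.01 (0.911 to 1.12), that of Irs2 1.02 (0.936 to 1.12) and that of Insr 1.12 (1.00 to 1.24). With size factors the Ghr and Irs2 ratios lay below 1, at 0.926 and 0.936. Igf1 at 0.629 was then called lower as well over all spots, and so was Igfbp5 at 0.652 in cortex. In the outer stripe, in CPM, Igf1 at 0.639, Igfbp4 at 0.601 and Igfbp5 at 0.662 were called lower. In the medulla Igf1 at 0.448 and Igfbp5 at 0.560 were called lower and Igfbp3 at 1.60 higher, while Igfbp4 at 0.781 was not called. Shares of all genes called were not counted in these zones, where the median gene lay at a log2 ratio of 0.03. This comparison shares a section with each of those above, and agreement between them is no separate result.

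**Figure D2:**
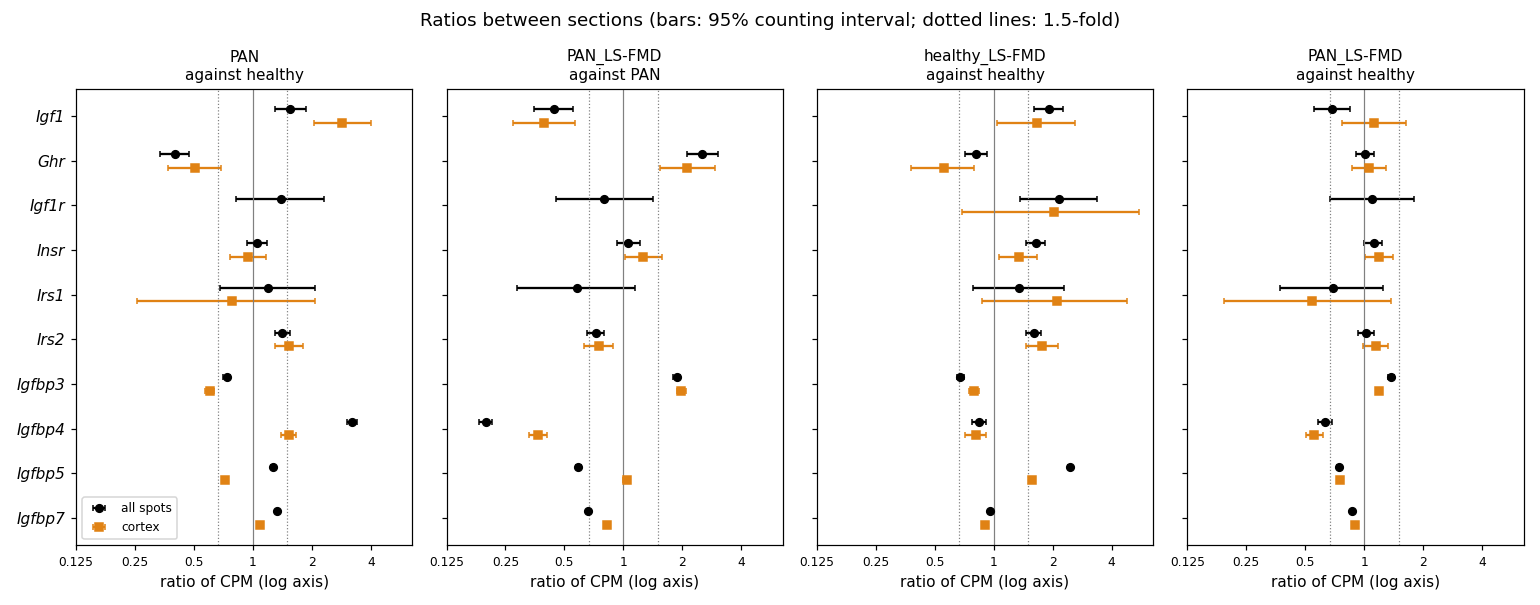
Ratio of CPM between sections (log axis) for the 10 genes in the 4 comparisons, over all spots and in cortex, with 95% counting intervals; genes under 20 UMIs are left out and dotted lines mark 1.5-fold. Igfbp4 was 3.20-fold higher in PAN against healthy (2.24-fold with size factors) and 0.198 times in PAN_LS-FMD against PAN, and Igfbp5 was 2.44-fold higher in healthy_LS-FMD against healthy. In PAN against healthy the all-spot ratios of Igf1r, Insr, Irs1, Irs2, Igfbp5 and Igfbp7 lay above 1 as drawn and below 1 with size factors, as did that of Igfbp7 in cortex (1.09 and 0.823). In PAN_LS-FMD against healthy the same held for Ghr and Irs2 over all spots and in cortex and for Igf1 in cortex, and in PAN_LS-FMD against PAN the Igf1r ratio lay below 1 as drawn and above it with size factors.

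The uninjected kidney after 1 diet cycle differed from the healthy one in 5 genes, all higher. Igfbp5 was 2.44-fold higher in healthy_LS-FMD (2.39 to 2.48), Igf1r 2.15-fold (1.37 to 3.37), Igf1 1.91-fold (1.61 to 2.27), Insr 1.64-fold (1.47 to 1.82) and Irs2 1.60-fold (1.47 to 1.75). Of all genes 27.1% were called higher and 5.27% lower, 32.4% together. With size factors the split was 3 higher and 3 lower: Igfbp5 at 1.92, Igf1r at 1.70 and Igf1 at 1.51 were higher, and Ghr at 0.641, Igfbp3 at 0.530 and Igfbp4 at 0.663 were lower. Insr at 1.29 and Irs2 at 1.26 were then not called.

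Much of the Igfbp5 and Igf1 difference lay in the medulla. Igfbp5 stood there at 2106 CPM in healthy_LS-FMD and 422 CPM in healthy, a ratio of 4.99 (4.83 to 5.16), against 1.57 (1.52 to 1.62) in cortex and 1.49 (1.44 to 1.55) in the outer stripe. Igf1 stood in the medulla at 21.7 CPM in healthy_LS-FMD and 10.9 CPM in healthy, a ratio of 1.99 (1.56 to 2.54), and in the outer stripe at 4.86 and 4.46 CPM, where the ratio with size factors was 0.925. Without the medullary regions the Igf1 ratio was 1.25 and that of Igfbp5 1.39, and neither was called, while Igf1r, Insr and Irs2 still were.

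The medulla of these sections did not hold the same regions. In healthy_LS-FMD, Igfbp5 reached 3366 CPM in the region led by Slc6a12, an osmolyte transporter, 2633 CPM in the one led by Aqp3, a collecting duct water channel, and 2437 CPM in the one led by Thbs2. No region of healthy had Slc6a12 or Thbs2 among its 3 leading genes. In regions that both sections held with Spp1 and Slc4a11 among the leading genes, Igfbp5 stood at 946 CPM in healthy_LS-FMD and 697 CPM in healthy, and Igf1 at 18.3 CPM (38 UMIs) and 29.6 CPM (60 UMIs). In the medulla the 7 principal cell markers together made 3500 CPM in healthy_LS-FMD and 1706 CPM in healthy, the 6 inner medulla markers found 4457 and 2077 CPM, the 7 endothelial markers found 1026 and 571 CPM and the 6 S3 markers 4799 and 11497 CPM. In healthy the inner medulla markers also made 1876 CPM in cortex and 2042 CPM in the outer stripe, so their sum did not set the medulla apart there. The stretch of medulla that each section cut and the diet cannot be told apart here.

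In cortex 4 of 10 genes were called in healthy_LS-FMD against healthy, where 25.9% of all genes were higher and 6.99% lower, 32.9% together. Irs2 was 1.77-fold higher (1.47 to 2.12), Igf1 1.67-fold (1.04 to 2.61) and Igfbp5 1.57-fold, and Ghr stood at 6.62 CPM in healthy_LS-FMD against 11.9 CPM in healthy, a ratio of 0.557 (0.379 to 0.797). With size factors none was called higher, and Ghr at 0.449, Igfbp3 at 0.637 and Igfbp4 at 0.652 were called lower. These cortical calls also turn on the zones. The region of 213 spots in healthy_LS-FMD led by S1 and S2 markers was counted with the outer stripe, since its S3 score was the higher one after division by the spread. With undivided scores, an alternative added after seeing the data, that region joined the cortex and the region led by Klk1c9 and Calb1 left it. Igf1r at 3.09 and Irs2 at 1.60 were then called higher and Igfbp3 at 0.571 lower, while Igf1 at 1.30, Igfbp5 at 1.17 and Ghr at 0.809 were not called. The distal convoluted and connecting tubule markers found made 3218 CPM in healthy_LS-FMD cortex and 892 CPM in healthy cortex, and the S1 and S2 markers 8000 and 14105 CPM.

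**Figure D3:**
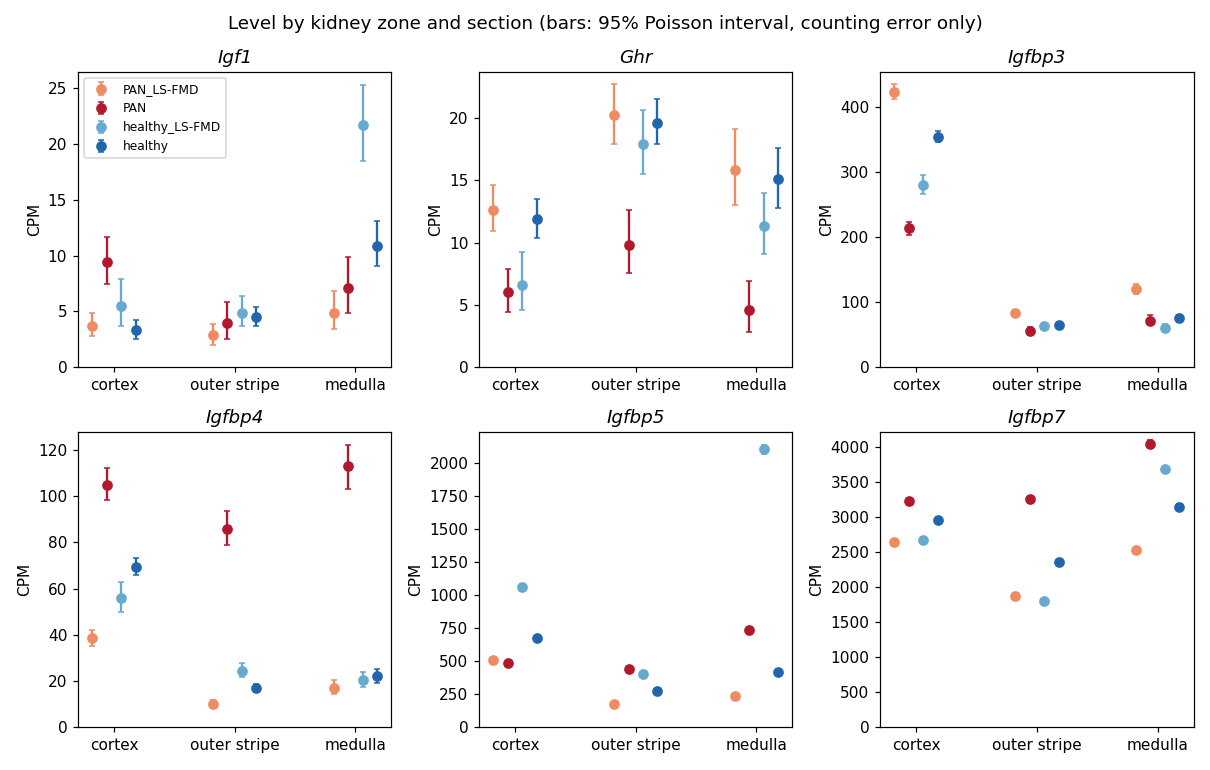
Level of 6 of the genes (CPM, linear axis from 0) in cortex, outer stripe and medulla of the 4 sections, with 95% Poisson intervals for counting error. Igfbp3 was highest in cortex in every section (213 to 423 CPM), Igfbp4 was high in all zones of PAN (85.9 to 113 CPM), and Igfbp5 reached 2106 CPM in the medulla of healthy_LS-FMD.

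Insr and Irs2 varied by less than 1.5-fold between zones of a section. Insr stood at 19.3, 15.1 and 13.2 CPM in cortex, outer stripe and medulla of PAN_LS-FMD, at 15.3, 18.7 and 14.7 CPM in PAN, at 21.7, 25.0 and 25.1 CPM in healthy_LS-FMD and at 16.2, 14.4 and 15.1 CPM in healthy. Irs2 stood at 21.7, 20.8 and 30.5 CPM in the 3 zones of PAN_LS-FMD, at 29.0, 29.9 and 28.4 CPM in PAN, at 33.5, 40.2 and 31.7 CPM in healthy_LS-FMD and at 19.0, 24.9 and 26.3 CPM in healthy. In CPM the healthy_LS-FMD section was the highest of the 4 for both genes in every zone.

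Set together, the diet sections lay on 1 side of the others for 3 of the 10 genes. Insr was higher in both diet sections (16.4 and 24.1 CPM) than in PAN and healthy (15.4 and 14.7 CPM). Igfbp4 was lower in both (23.2 and 30.8 CPM, against 117 and 36.5 CPM), and so was Igfbp7 (2324 and 2558 CPM, against 3534 and 2680 CPM). Such an order held for 10.5% of all genes upwards and 8.24% downwards, 18.8% together. The diet sections differ in injury, number of cycles and refeeding and are not replicates, and 2 against 2 sections cannot give a permutation p below 0.333. Between PAN_LS-FMD and PAN the intervals of Insr overlapped (ratio 1.06, 0.932 to 1.21). The same 3 genes kept this order in cortex, but in the outer stripe only Igfbp7 of them did and in the medulla only Igfbp4. With every section given the same mix of zones, Insr no longer did over all spots. With size factors Igf1r was also higher in both diet sections over all spots, at 1.01 and 1.70 times healthy, against 0.973 times in PAN. Its counts were low.

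For 5 of the 10 genes the diet ratios of the injected and the uninjected pair lay on opposite sides of 1, with intervals that excluded 1 in both. How many of all genes meet this rule was not counted. The median gene itself moved in opposite directions, with log2 ratios of -0.37 in the injected pair and 0.33 in the uninjected pair. The Igf1 ratio was 0.442 in PAN_LS-FMD over PAN and 1.91 in healthy_LS-FMD over healthy. For Igfbp5 the ratios were 0.590 and 2.44. For Ghr they were 2.53 and 0.813, for Igfbp3 1.87 and 0.674, and for Irs2 0.724 and 1.60. With size factors Igf1, Ghr and Igfbp3 were called in both pairs, while Igfbp5 at 0.770 was not called in the injected pair and Irs2 in neither. In cortex the Igf1 ratios were 0.393 and 1.67, and those of Igfbp5 1.04 and 1.57. The difference between the pairs was not tested.

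Within the kidney the genes had places that recurred between sections. Igfbp3 was low in the spots richest in S3 markers, at 0.219 times the level of other spots in PAN_LS-FMD, 0.599 in PAN, 0.415 in healthy_LS-FMD and 0.289 in healthy. It was high in those richest in distal convoluted and connecting tubule markers, with ratios of 1.99, 3.30, 2.27 and 2.54, and in podocyte-rich spots, with ratios of 1.69, 2.19, 2.42 and 2.17. Igfbp5 was also low in S3-rich spots, between 0.301 and 0.620 times the other spots. Irs1 was higher in spots rich in markers of intercalated cells, the acid-base cells of the collecting duct, with ratios of 2.91, 4.71, 6.40 and 2.94, but on 2 to 5 UMIs a section, and the intervals excluded 1 in PAN and healthy_LS-FMD only. Insr and Irs2 were spread widely, with ratios between 0.589 and 1.52 for Insr and between 0.503 and 1.52 for Irs2 over the 15 marker lists.

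Regions led by podocyte markers held 101 spots in PAN_LS-FMD, 32 in PAN, 60 in healthy_LS-FMD and 125 in healthy, and are given here because the toxin acts on podocytes. Igfbp7 stood there at 4179, 5366, 3634 and 4850 CPM. Igfbp3 stood at 387, 340, 250 and 345 CPM, and Igfbp5 at 562, 742, 1054 and 729 CPM. Igf1 rested on 8, 6, 6 and 5 UMIs, too few to order the sections. Between spots a glomerulus shares its region with surrounding tubule, so these are levels of mixed tissue.

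**Figure D4:**
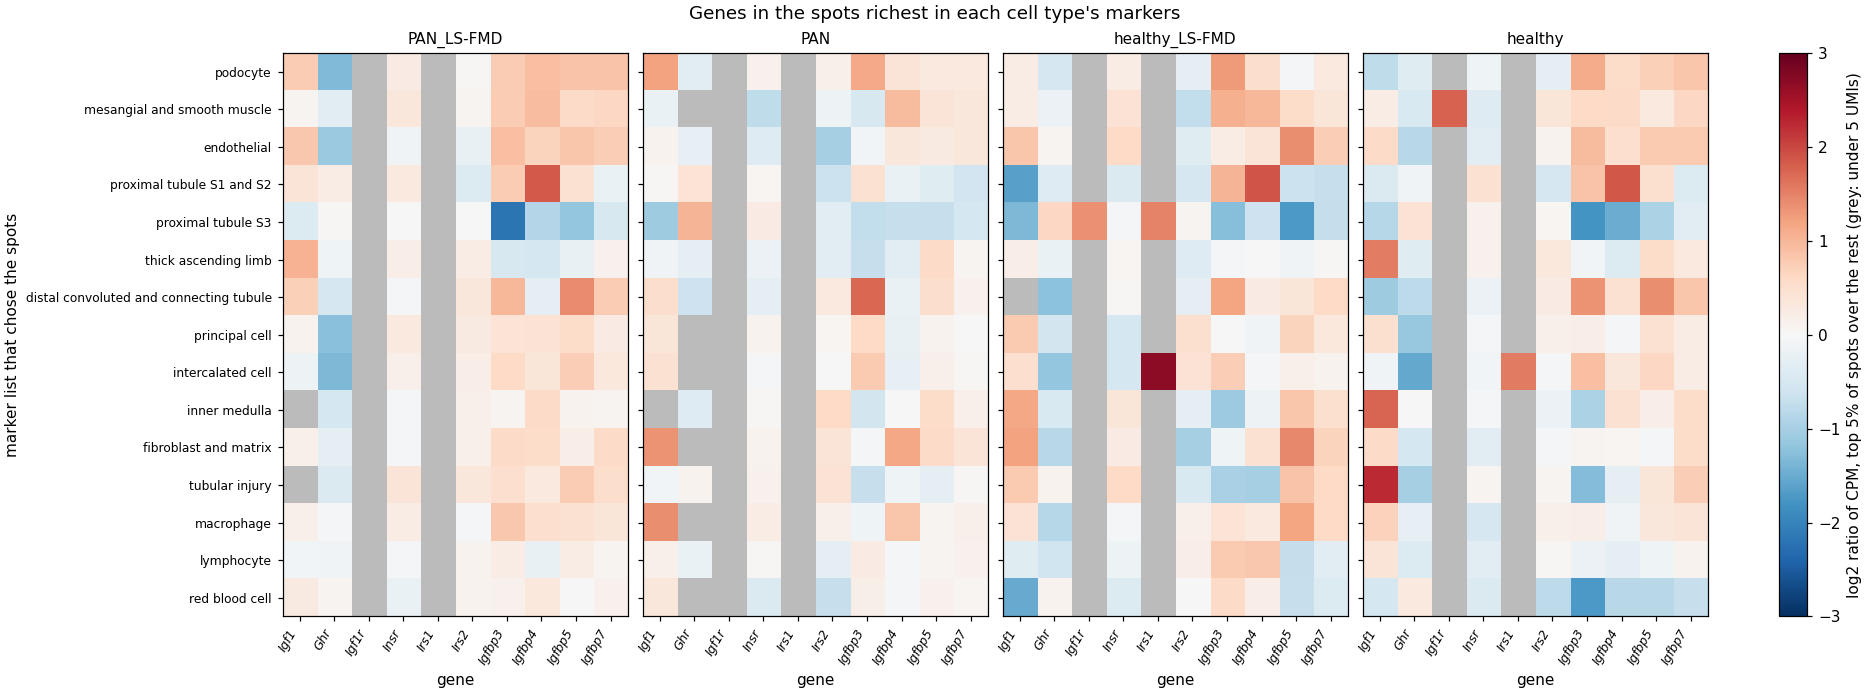
For each section, the log2 ratio of CPM in the 5% of spots richest in each of 15 marker lists over the other spots (colour), for the 10 genes; grey cells have under 5 UMIs in those spots. Igfbp4 was 3.56 to 3.72 times higher in spots rich in S1 and S2 markers in 3 sections and 0.876 times in PAN, and the Ghr ratio in S3-rich spots was 2.03 in PAN and 1.03 to 1.55 in the other sections.

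Over the 54 regions of the 4 sections, with log2(CPM + 10) centred within each section, Igfbp5 and Igfbp7 had a Pearson correlation of 0.78 and Igfbp3 and Igfbp4 one of 0.75. Ghr ran against the binding proteins, with correlations of -0.49 to -0.60. Among 6793 genes compared, the nearest to Igfbp3 was Slc7a8 (0.95), followed by Fam151a and Nudt16l1 (0.93 each). The nearest to Igfbp5 was Tcn2 (0.90), to Igfbp4 Kctd17 (0.85), to Igfbp7 Pvrl2 (0.89), to Igf1 Ankrd13a (0.82) and to Ghr Adra2b (0.81). For Irs2 it was Ube2e2 (0.66), for Irs1 Kit (0.65), for Insr Rn50_X_0733.2 (0.62) and for Igf1r Uchl5 (0.56). Igf1r and Irs1 had at most 44 and 41 UMIs a section over all its regions, so counting error limits their correlations. Each nearest gene was picked as the highest among 6793, and how high such a maximum would lie by chance was not tested. Regions of 1 section share a library, and all these correlations are descriptions across regions.

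Beside the 10 genes, 69 others of the pathway were read in 6 lists, 1 symbol being absent from the rows. In PAN against healthy 54 were measured, 26 called higher and 3 lower, with a median log2 ratio of 0.60 against 0.51 for all genes. Of all genes 44.3% were higher and 9.85% lower, so these counts lie near the background; with size factors 14 were higher and 7 lower, against 22.6% and 21.6% of all genes. In the PI3K, AKT and mTOR list 10 of 15 were higher, among them Pik3r1, the regulatory subunit of PI3K, 6.21-fold (5.77 to 6.68), and Eif4ebp1, a translation repressor under mTOR, 3.53-fold; with size factors 4 of the 15 were higher and 1 lower. Of 9 other ligands, receptors and carriers 4 were higher, Gh1 being among them, with Igfbp6 at 6.53-fold and Igfbp1, the binding protein that insulin represses, at 215 CPM in PAN against 54.4 CPM in healthy, a ratio of 3.95 (3.78 to 4.13). Of 8 growth hormone signalling genes 4 were higher, Jak2, the kinase of Ghr, by 2.46-fold. With size factors 2 of these growth hormone signalling genes were higher. Among FOXO factors and their targets 3 of 8 were higher and 2 lower: Klf15 at 0.341 and Pck1, a gluconeogenic enzyme that is also an S1 and S2 marker here, at 0.378 times healthy. With size factors none of these 8 was higher and 3 were lower. The S1 and S2 markers together made 5300 CPM in PAN and 8865 CPM in healthy, and their part was not tested.

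In PAN_LS-FMD against PAN 52 were measured, 3 called higher and 20 lower, with a median of -0.47 against -0.37 for all genes. Of all genes 9.67% were higher and 35.5% lower, so the lower count lies near the background; with size factors 10 were higher and 13 lower, against 18.8% and 21.8% of all genes. The 3 higher ones were Pck1 (3.40-fold), Klf15 (2.91-fold) and G6pc (2.26-fold), all on the list of FOXO factors and targets, where 3 of 8 were lower, among them Sesn3 at 5.09 CPM in PAN_LS-FMD against 10.2 CPM in PAN. With size factors 3 of these 8 were higher and 1 lower. The S1 and S2 markers, Pck1 among them, together made 9176 CPM in PAN_LS-FMD and 5300 CPM in PAN, and their part was not tested. Pik3r1 stood at 0.141 times its PAN level, and Igfbp1 at 82.3 against 215 CPM. Cfd, a serine protease better known as complement factor D, stood at 1.92 CPM in PAN_LS-FMD against 34.3 CPM in PAN. In PAN_LS-FMD against healthy 51 were measured, 7 called higher and 3 lower, with a median of 0.11, as for all genes, of which 6.80% were higher and 4.53% lower; with size factors 1 was higher and 3 lower.

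In healthy_LS-FMD against healthy 53 were measured, 16 called higher and 5 lower, with a median of 0.28 against 0.33 for all genes. Of all genes 27.1% were higher and 5.27% lower, near the shares of the list; with size factors 8 were higher and 7 lower, against 10.4% and 12.8% of all genes. Stat5a, which carries the growth hormone signal to the nucleus, was 2.36-fold higher (2.19 to 2.55), Irs3 2.71-fold and Foxo4 2.10-fold. G6pc stood at 119 CPM in healthy_LS-FMD against 307 CPM in healthy, and Pck1 at 463 against 916 CPM. The S1 and S2 markers, Pck1 among them, together made 5301 CPM in healthy_LS-FMD and 8865 CPM in healthy, and their part was not tested. Igfals, which stabilises IGF complexes in serum, stood at 5.92 CPM in healthy_LS-FMD and 10.4 CPM in healthy, a ratio of 0.567 (0.471 to 0.679).

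Gh1, the pituitary growth hormone, was on the list of other ligands and differed more between sections than any of the 10 genes. It had 17 UMIs in PAN_LS-FMD, 152 in PAN, 1353 in healthy_LS-FMD and 0 in healthy. Against a floor of 3 UMIs over the healthy section, its level was at least 1043-fold higher in healthy_LS-FMD, at 53.4 CPM, and at least 119-fold higher in PAN, at 6.10 CPM. In healthy_LS-FMD it was found in 1021 spots, at most 5 UMIs a spot, and in all 15 regions at 41.2 to 96.7 CPM; in PAN it was found in all 13 regions at 4.27 to 9.21 CPM. Whether these UMIs stem from RNA of the kidney section or from another source was not tested, so they are not read as expression in the kidney, and the counts of the ligand list that hold Gh1 carry the same limit.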

How the data were processed

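The deposited files hold, per section, raw UMI counts per gene and spot, made by the authors with Space Ranger 1.2.1 or 2.0.1 per the file headers; aligner settings, genome build and annotation are not given in the sources used here. The gene and spot name files carry no other values. No spot was removed beyond those under 500 UMIs (2 to 5 a section), and no doublet caller was run, since spots hold several cells. Median depth was 8482 to 19531 UMIs a spot. Visium barcodes mark fixed slide positions, so sections shared 1650 to 2279 of them.

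From these counts, CPM, exact Poisson intervals of levels and exact binomial-split intervals of ratios were computed in scipy 1.17.1; the ratio step was checked on simulated counts. Spots were clustered in scanpy 1.11.5 (2000 variable genes, 30 components, 15 neighbours, Leiden resolution 1). A region led by stromal, immune, vascular or injury markers had no zone, and each other one took the zone of the nephron marker list with the highest centred score after division by its SD over regions; this rule was settled on the clusters' marker scores, not on the 10 genes. The 10 genes and all lists were chosen with earlier results of these data known. Pathway genes are named by size of ratio, up to 4 a list among those called with at least 50 UMIs, nearest genes by correlation. Alternatives were other scaling, spot, threshold and region settings.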

Additional observations from a re-analysis of the deposited data

Results flagged for a closer look

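Igf1, Ghr, Irs2, Igfbp3 and Igfbp5 were picked out because their diet ratios lay on opposite sides of 1 in the injected and the uninjected pair, with counting intervals that excluded 1 in both. How many of all genes meet this rule was not counted, and the median gene itself moved in opposite directions in these pairs. In PAN_LS-FMD over PAN the ratio was 0.442 for Igf1, 2.53 for Ghr, 0.724 for Irs2, 1.87 for Igfbp3 and 0.590 for Igfbp5. In healthy_LS-FMD over healthy it was 1.91 for Igf1, 0.813 for Ghr, 1.60 for Irs2, 0.674 for Igfbp3 and 2.44 for Igfbp5. With size factors Igf1, Ghr and Igfbp3 were called in both pairs, and Igfbp5 at 0.770 was not called in the injected one. Each ratio rests on 1 section a group, and the difference between pairs was not tested; the diets also differed, 6 cycles in one and 1 cycle with 72 hours of refeeding in the other. Without the medullary regions the uninjected ratios were 1.25 for Igf1 and 1.39 for Igfbp5, and the injected ones 0.391 and 0.687.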

How the results depend on the processing

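No paired analysis was possible because each group holds 1 section. Alternatives using all deposited spots or spots with at least 2000 UMIs kept every count of called genes within 1.5 times of the reported one. In PAN against healthy over all spots the count was 3 and became 5 with the mean CPM of spots; in cortex it was 5 and became 3 with totals free of mitochondrial and haemoglobin UMIs and 1 at a 2-fold threshold. At that threshold the count was 3 of a reported 6 in PAN_LS-FMD against PAN over all spots, 2 of 5 over all spots and 0 of 4 in cortex in healthy_LS-FMD against healthy, and 0 of 1 in PAN_LS-FMD against healthy over all spots and in cortex. In that last comparison the all-spot count was 2 with size factors, 2 with the same mix of zones and 0 with the mean CPM of spots, and the cortical count 2 with size factors. Chosen after seeing the data, leaving out medullary regions gave 3 in healthy_LS-FMD against healthy, and zones from undivided marker scores gave 3 in its cortex, of which only Irs2 was among the 4 reported. The cause was not tested beyond what each setting changes. Of the single-gene ratios under alternatives, 525 stayed within their counting interval, 135 moved beyond it and 0 called ones changed direction. The 525 include ratios that a setting could not move, such as the cortical ones without matrix- or injury-led regions. Cortical counts with all deposited spots were not run, since spots under 500 UMIs were not clustered; clustering the sections together left PAN without a cortical region, so its 2 cortical comparisons have no value there; no cortical region was led by matrix or injury markers, so leaving such regions out changes nothing. Depth limits Igf1r and Irs1, with at most 44 and 41 UMIs a section.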

Other observations

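Gh1 did not come alone. Prl, the pituitary hormone prolactin, looked up after Gh1 was seen, had 58 UMIs in healthy_LS-FMD, 5 in PAN, and 0 in PAN_LS-FMD and healthy. In healthy_LS-FMD it was found in 12 of 15 regions. Cd79b, a B cell gene whose row follows that of Gh1, was also looked up afterwards. It had 67 UMIs (2.64 CPM) in healthy_LS-FMD and 115 UMIs (1.96 CPM) in healthy. In PAN Cd79b had 799 UMIs (32.1 CPM). Whether the Gh1 and Prl UMIs came from the kidney section or from another source was not tested.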
